A study of Mus musculus with 39 samples.

Results

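The 33 genes described here encode enzymes, regulators and a carrier of sterol and fatty acid synthesis, followed in 2 brain macrophage populations of the mouse embryo. They were taken by symbol from a fixed list: 7 enzymes of the mevalonate and isoprenoid steps, 11 of the squalene and sterol ring steps, 5 regulators, 1 sterol carrier, 3 enzymes that make fatty acid chains and 6 desaturases and elongases. Each matched 1 of the 53379 genes of the count table, and all 33 were among the 22061 genes that passed the filter on low counts. The populations were BAM (border-associated macrophages, found in meninges, choroid plexus and perivascular spaces) and microglia, the macrophages of the brain tissue itself. Both were sorted by flow cytometry from brains of time-mated C57Bl/6 mice with no mutant allele, transgene or treatment named, at embryonic days E10.5, E11.5, E12.5, E14.5, E16.5 and E18.5. There were 4, 3, 3, 3, 3 and 4 BAM libraries at these stages (20 in all), and 4, 3, 3, 2, 3 and 4 microglia libraries (19 in all). The sorting markers, the litters, the number of embryos behind a library and their sex are not given in the sources used here, so p-values measure the spread between these samples, which may be technical. In such bulk libraries, fewer cells of a type and less RNA per cell cannot be told apart.

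Cells make cholesterol from acetyl-CoA through mevalonate and squalene to lanosterol, whose rings and side chain are then remodelled, and they make fatty acids from the same acetyl-CoA by carboxylation, chain building, elongation and desaturation. Most of these genes are transcribed under the sterol regulatory element-binding proteins, encoded by Srebf1 and Srebf2, which the escort protein Scap carries from the endoplasmic reticulum to the Golgi for cleavage when membrane sterol is low and which Insig1 and Insig2 hold back when it is high. In the adult brain, which is largely cut off from circulating lipoproteins, sterol is made locally. Brain macrophages also take up lipid from dying cells and export it through lipoprotein particles.

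Library totals ran from 10.7 to 47.2 M counts (M, 1000000 counts) with a median of 22.4 M, and mitochondrial genes took 1.36% to 3.83% of the counts. The titles fall into 2 number ranges. Those starting with R10 (16 libraries, called series R10) cover E10.5, E11.5 and a single library per population of E18.5, and those starting with R8 cover the other 23 (series R8). Comparisons that use E18.5 were therefore repeated with its libraries of 1 series left out, which sets E18.5 against E10.5 within R10 and against E12.5 within R8. The defining markers fitted the labels. Mrc1 stood at 3180 to 9560 CPM (counts per 1000000 counts of the library) in BAM and 226 to 2280 in microglia, and Lyve1 at 190 to 4100 CPM in BAM and 1.44 to 57.5 in microglia. Tmem119 stood at 19.9 to 79.4 CPM in BAM and 185 to 1130 in microglia, and P2ry12 at 100 to 334 CPM in BAM and 150 to 2400 in microglia. Of the 10 BAM markers 10 were higher in BAM over the 6 stages, and of the 10 microglia markers 10 were lower.

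The control regions of these genes are shown first, and their part in any RNA change was not tested. RefSeq promoter windows of 300 bases on GRCm38.p6, from 250 bases before to 50 bases after the annotated start, were matched for 26 of the 33 genes. Windows were searched on both strands for TCACNCCA, the core of a sterol regulatory element, for CCAAT, the box bound by NF-Y, and for GGGCGG, the box bound by Sp1, both known as partners at sterol promoters. CCAAT was found in 21 of the 26 genes, against 41.06% of all 27025 genes with such a window. GGGCGG was found in 21 of the 26 genes as well, against 38.2% of all genes. TCACNCCA was found in 3 of the 26 (Hmgcs1, Msmo1 and Srebf2), against 4.97% of all genes, and the longer TCACNCCAC in Hmgcs1 alone, against 1.44%. A match is a description of the letters and not a bound site. The 27025 genes were not limited to those that passed the filter on low counts. Windows of members whose RNA fell were not compared with those of other members. The windows of 5 genes are printed 5′ to 3′ in the direction of the gene, for genes whose RNA was lower at E11.5 than at E10.5 in microglia (Hmgcs1) or in both populations (the other 4), with TCACNCCA and CCAAT (which reads ATTGG on the opposite strand) in capitals.
Hmgcs1, chr13:119690101-119690400, plus strand: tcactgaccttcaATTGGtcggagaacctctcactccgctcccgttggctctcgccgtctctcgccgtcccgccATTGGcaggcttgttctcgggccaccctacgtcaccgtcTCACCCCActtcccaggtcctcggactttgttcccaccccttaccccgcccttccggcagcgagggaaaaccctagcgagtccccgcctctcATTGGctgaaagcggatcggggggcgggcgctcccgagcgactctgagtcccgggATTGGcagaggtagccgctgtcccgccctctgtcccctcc
Idi1, chr13:8885356-8885655, plus strand: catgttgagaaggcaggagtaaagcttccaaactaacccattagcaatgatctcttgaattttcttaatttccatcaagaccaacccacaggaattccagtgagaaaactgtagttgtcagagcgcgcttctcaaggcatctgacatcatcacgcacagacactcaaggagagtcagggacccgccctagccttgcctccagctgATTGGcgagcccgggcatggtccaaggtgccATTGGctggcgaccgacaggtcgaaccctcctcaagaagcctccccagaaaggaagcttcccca
Cyp51, chr5:4104648-4104947, minus strand: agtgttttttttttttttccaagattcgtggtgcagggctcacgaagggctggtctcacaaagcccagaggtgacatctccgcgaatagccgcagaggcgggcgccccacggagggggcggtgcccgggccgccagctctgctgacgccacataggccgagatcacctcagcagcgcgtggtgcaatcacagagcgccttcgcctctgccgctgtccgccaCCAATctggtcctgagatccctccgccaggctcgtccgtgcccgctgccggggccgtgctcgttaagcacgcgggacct
Msmo1, chr8:64733529-64733828, minus strand: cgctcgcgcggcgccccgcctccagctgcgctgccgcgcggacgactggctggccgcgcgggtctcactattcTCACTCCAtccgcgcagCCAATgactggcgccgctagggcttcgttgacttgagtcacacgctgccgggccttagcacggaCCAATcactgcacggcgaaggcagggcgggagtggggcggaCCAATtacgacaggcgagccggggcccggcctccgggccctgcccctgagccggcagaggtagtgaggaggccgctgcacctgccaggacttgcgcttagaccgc
Sc5d, chr9:42264251-42264550, minus strand: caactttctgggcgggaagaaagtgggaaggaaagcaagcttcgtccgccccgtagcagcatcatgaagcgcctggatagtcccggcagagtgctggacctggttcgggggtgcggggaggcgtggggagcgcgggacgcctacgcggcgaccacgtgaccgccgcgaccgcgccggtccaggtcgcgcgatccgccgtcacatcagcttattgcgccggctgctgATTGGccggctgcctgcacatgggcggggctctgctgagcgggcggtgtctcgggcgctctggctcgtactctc
In the Hmgcs1 window TCACNCCA begins 137 bases before the start and 4 CCAAT boxes lie on the minus strand of the window. In the Msmo1 window it begins 177 bases before the start, with 3 CCAAT boxes downstream of it. Idi1 has 2 CCAAT boxes, 45 and 14 bases before the start, while Cyp51 and Sc5d have 1 each, 29 and 24 bases before it.

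Per kilobase of exon, the scale on which levels of different genes can be set side by side, the highest members in BAM over all stages were Acly with 60.8, Fads1 with 53.7 and Ebp with 26.2 CPM per kilobase. In microglia they were Scd2 with 78.3, Acly with 67.01 and Fads1 with 50.9 CPM per kilobase. Acly, ATP citrate lyase, supplies cytosolic acetyl-CoA to both pathways. Scd2, a stearoyl-CoA desaturase that makes monounsaturated fatty acids, reached 21.9 CPM per kilobase in BAM. Lowest in both populations were Fdps, the farnesyl diphosphate synthase, with 0.386 in BAM and 0.626 in microglia, and the second stearoyl-CoA desaturase gene Scd1 with 0.652 in BAM and 0.531 CPM per kilobase in microglia. Of the Fdps exon bases, 26.7% also lie in exons of Gm43738 on the same strand. Of its words of 75 bases, 23.5% occur in 5 other genes, so its counts may be shared with them and its level is uncertain. Scd1 was listed at 0 in 5 BAM libraries and Fdps in 1, where a count of 0 allows up to 0.102 to 0.142 CPM for Scd1 and 0.223 CPM for Fdps (3 counts of the library total, counting error only). If both reads of a pair were counted, which the sources used here do not state, 3 fragments give 6 counts and the limits are 0.205 to 0.284 CPM for Scd1 and 0.447 CPM for Fdps.

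Averaged over the 6 stages, BAM held less RNA than microglia of 14 members, among them Scd2, 6 sterol ring enzymes and 4 regulators, and more of 2 members. Of the 33 genes, 14 were lower in BAM and 2 were higher (edgeR quasi-likelihood test, Benjamini-Hochberg adjusted p under 0.05), where 13.7% of all tested genes were called higher and 14.52% lower. The median log2 difference of the members was -0.21, and that of all tested genes -0.02. By step, lower calls in BAM fell on 0 of 7 mevalonate and isoprenoid enzymes, 6 of 11 squalene and sterol ring enzymes, 4 of 5 regulators, 2 of 3 fatty acid synthesis enzymes and 2 of 6 desaturases and elongases. The 2 higher calls were the mevalonate step enzyme Pmvk and the sterol carrier Stard4.

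**Figure D1:**
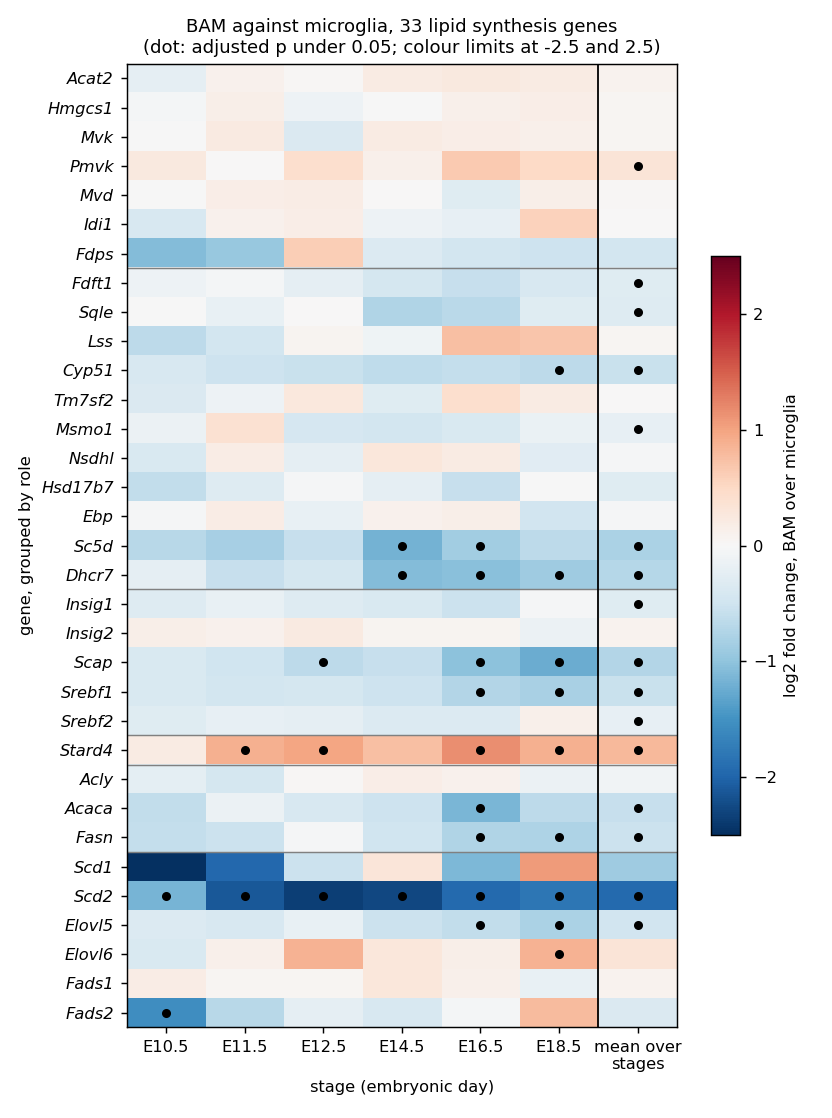
Heat map of the log2 difference of BAM over microglia for the 33 genes (rows, grouped by step) at each of 6 stages and as their mean (columns), with a dot where the edgeR adjusted p was under 0.05. Scd2 is blue with a dot in every column, Stard4 is red with a dot at E11.5, E12.5, E16.5 and E18.5, and the mevalonate rows at the top have a single dot, for Pmvk in the mean.

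Scd2 (ENSMUSG00000025203.5, chr19:44293676-44306864 on GRCm38) showed the largest difference among the members. At E10.5 it had 91.97, 94.8, 144 and 158 CPM in BAM, against 227, 235, 287 and 338 CPM in microglia. At E12.5 the values were 28.7, 52.7 and 124 CPM in BAM, against 228, 362 and 435 CPM in microglia. At E18.5 they were 195, 196, 201 and 257 CPM in BAM, against 567, 653, 704 and 828 CPM in microglia. The lowest microglia library lay above the highest BAM library at each of the 6 stages. The log2 difference was -1.94 ± 0.13 (adjusted p = 6.6e-14) over the stages, and the gene was called lower in BAM at every single stage, with -1.16 ± 0.28 at E10.5, -2.11 ± 0.34 at E11.5 and -1.80 ± 0.29 at E18.5. In BAM at E12.5, replicate 1 had the highest Scd2 level of its group with 124 CPM, and also the highest summed level of 11 radial glia and neuron markers, 988.5 CPM against 425.9 and 362.2 CPM in the other 2. The 3 microglia libraries of E12.5 had 637.7, 778.4 and 800.2 CPM of these markers. This sum includes Vim and Nes, which stood at 40.8 and 71.2 CPM or more in every microglia library of the 6 stages. The part of the 11 markers in the Scd2 level was not tested.

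Among the sterol ring enzymes, Dhcr7, Sc5d and Cyp51 differed most. Dhcr7, the reductase that ends the Kandutsch-Russell branch by making cholesterol, ranged over 16.6, 35.03 and 75.2 CPM (lowest, median, highest of 20 libraries) in BAM and 44.3, 56.1 and 84.2 CPM in 19 microglia libraries. The groups overlapped at E10.5 and E11.5 and stood apart from E12.5 on, as at E16.5 with 22.9, 25.8 and 27.9 CPM in BAM, against 48.9, 55.7 and 58.6 CPM in microglia. Sc5d, the desaturase acting just before it, ranged over 9.11, 16.1 and 30.04 CPM in BAM and 16.45, 28.4 and 55.5 CPM in microglia, with no overlap at the 5 stages up to E16.5. The lanosterol demethylase Cyp51 ranged over 16.9, 28.9 and 82.5 CPM in BAM and 29.4, 43.01 and 111 CPM in microglia, with no overlap at E14.5 and E16.5. The log2 differences over the stages were -0.71 ± 0.08 (adjusted p = 2.24e-09) for Dhcr7, -0.80 ± 0.11 (adjusted p = 2.74e-07) for Sc5d and -0.56 ± 0.10 (adjusted p = 4.22e-05) for Cyp51. Squalene synthase Fdft1, squalene epoxidase Sqle and the methylsterol oxidase Msmo1 were also called lower in BAM, by smaller amounts. The log2 differences were -0.30 ± 0.09 (adjusted p = 0.0125) for Fdft1, -0.32 ± 0.11 (adjusted p = 0.0198) for Sqle and -0.20 ± 0.08 (adjusted p = 0.044) for Msmo1. The 5 ring enzymes that were not called (Lss, Tm7sf2, Nsdhl, Hsd17b7 and Ebp) had log2 differences between -0.30 and 0.05. Part of the Fdft1 exons (18.3%) lies opposite to exons of Ctsb, and the strand setting of the counting is not given in the sources used here, so its level is uncertain.

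The regulators were lower in BAM in 4 of 5 cases. Scap ranged over 26.5, 38.4 and 73.5 CPM in BAM and 48.4, 68.2 and 88.3 CPM in microglia, and Srebf1 over 69.4, 82.98 and 96.9 CPM in BAM and 82.8, 126 and 164 CPM in microglia. Scap groups did not overlap at E11.5, E12.5, E16.5 and E18.5, and Srebf1 groups did not at E10.5, E14.5, E16.5 and E18.5. At E18.5 Srebf1 had 74.5, 86.2, 86.8 and 96.9 CPM in BAM, against 126, 127, 150.4 and 164 CPM in microglia. The log2 differences were -0.73 ± 0.08 (adjusted p = 1.14e-09) for Scap and -0.56 ± 0.06 (adjusted p = 4.33e-09) for Srebf1. Srebf2, the factor tied most closely to sterol genes, ranged over 32.1, 64.6 and 138 CPM in BAM and 37.8, 68.6 and 168 CPM in microglia. Insig1, itself a sterol-repressed target, ranged over 6.54, 21.9 and 57.6 CPM in BAM and 8.83, 23.1 and 69.5 CPM in microglia. Both overlapped between the populations at 5 of 6 stages, and their log2 differences were -0.21 ± 0.08 (adjusted p = 0.0498) and -0.30 ± 0.10 (adjusted p = 0.0219). Insig2, the second retention protein, was not called, with 29.9, 40.6 and 52.7 CPM in BAM and 27.5, 37.2 and 51.6 CPM in microglia and a log2 difference of 0.08 ± 0.06 (adjusted p = 0.418). Some exonic bases of Scap (13.2%) lie opposite to 5830462I19Rik, so a share of its counts is uncertain.

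Stard4, a soluble carrier that moves sterol between membranes, was the member most clearly higher in BAM. At E12.5 it had 32.1, 35.7 and 38.3 CPM in BAM, against 15.8, 17.1 and 21.6 CPM in microglia, and at E16.5 it had 24.2, 27.3 and 27.9 CPM in BAM, against 10.7, 11.3 and 14.7 CPM in microglia. The groups overlapped at E10.5 and did not at the 5 later stages. The log2 difference over the stages was 0.81 ± 0.09 (adjusted p = 3.79e-09). Phosphomevalonate kinase Pmvk ranged over 18.4, 30.2 and 62.2 CPM in BAM and 16.03, 25.4 and 45 CPM in microglia, without overlap at E12.5 and E16.5, and its log2 difference was 0.32 ± 0.10 (adjusted p = 0.0136). The other 6 mevalonate and isoprenoid enzymes (Acat2, Hmgcs1, Mvk, Mvd, Idi1 and Fdps) had log2 differences between -0.46 and 0.09 and were not called.

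On the fatty acid side, acetyl-CoA carboxylase Acaca, which makes malonyl-CoA, ranged over 7.802, 25.4 and 44.6 CPM in BAM and 25.7, 35.4 and 74.3 CPM in microglia. Fatty acid synthase Fasn, which builds the chain, ranged over 36.7, 82.6 and 187 CPM in BAM and 94.8, 125 and 233 CPM in microglia. For both genes the groups overlapped at the 3 earliest stages and stood apart at the 3 latest. Elovl5, which lengthens polyunsaturated chains, ranged over 33.9, 49.3 and 116 CPM in BAM and 46.3, 73.9 and 142 CPM in microglia, apart at E11.5 and at the 3 latest stages. The log2 differences were -0.58 ± 0.11 (adjusted p = 8.85e-05) for Acaca, -0.53 ± 0.10 (adjusted p = 9.89e-05) for Fasn and -0.48 ± 0.08 (adjusted p = 4.59e-06) for Elovl5. Acly, Scd1, Elovl6 (elongation of saturated chains), Fads1 and Fads2 (the desaturases of polyunsaturated chains) were not called over the stages, with log2 differences of -0.09 ± 0.07, -0.89 ± 0.46, 0.32 ± 0.14, 0.08 ± 0.05 and -0.35 ± 0.17 in that order. Of the words of 75 bases in Acaca exons 26.8% also occur in other genes, so its counts may be shared with them.

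**Figure D2:**
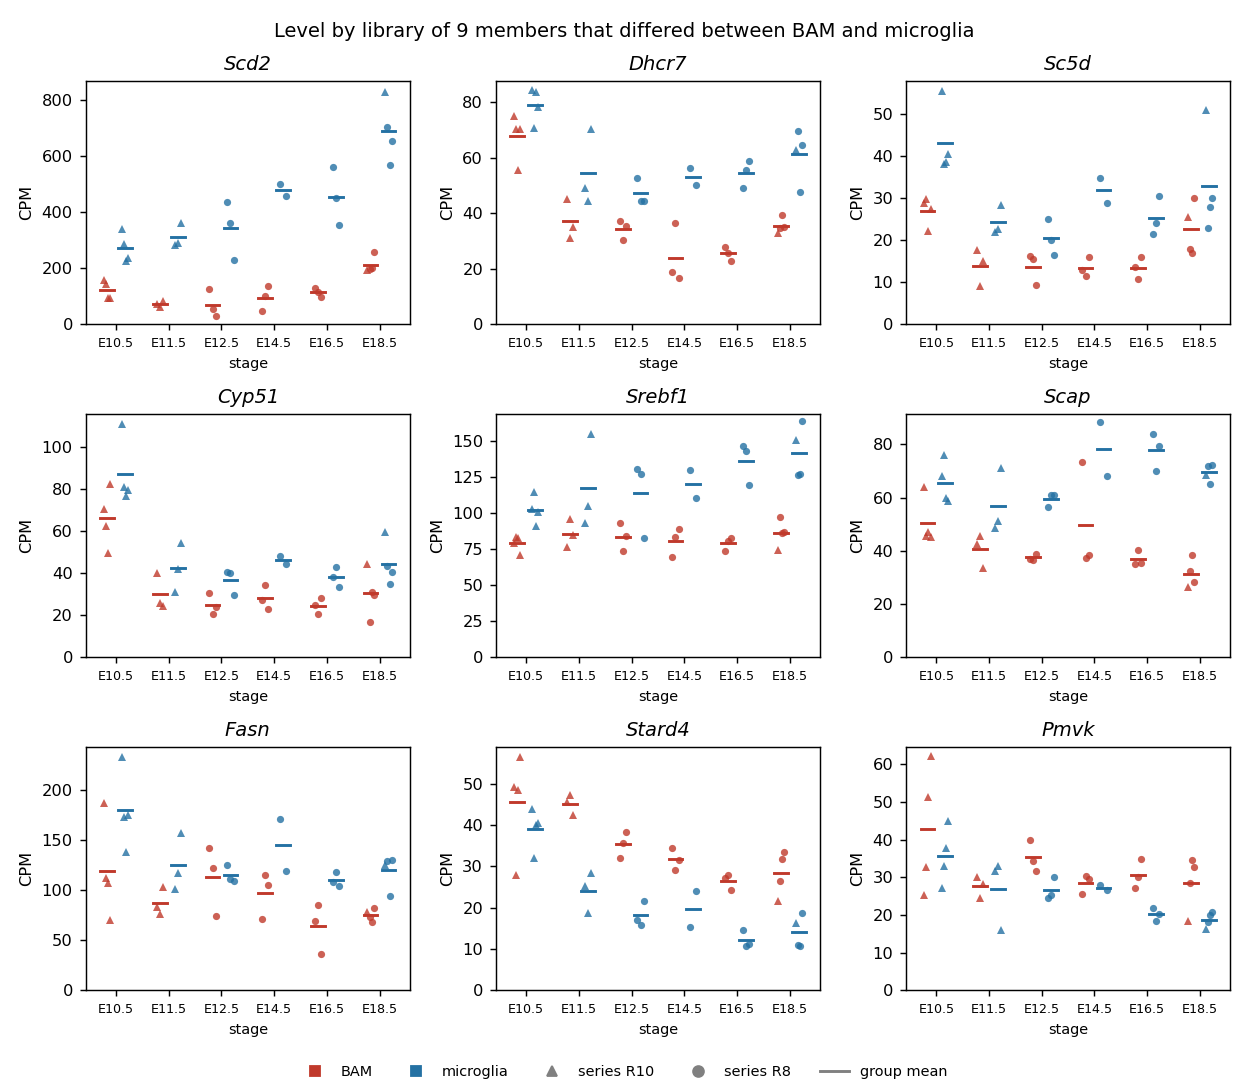
CPM of 9 members in each library by embryonic day, BAM (red, left of each stage) and microglia (blue, right), with bars at the group mean, triangles for series R10 and circles for R8. Red points lie below blue points at every stage for Scd2, and above them from E11.5 on for Stard4.

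Some of the calls over the stages rested on few libraries. Fdft1 was no longer called without microglia E14.5 replicate 1 (adjusted p = 0.0844). Sqle was no longer called without microglia E11.5 replicate 3 or without microglia E14.5 replicate 1 (adjusted p between 0.0512 and 0.136). For Msmo1 that happened with any 1 of 26 of the 39 libraries left out (adjusted p between 0.0508 and 0.183). For Insig1 that happened with any 1 of 3 of the 39 libraries left out (adjusted p between 0.0503 and 0.0901). For Srebf2 that happened with any 1 of 32 of the 39 libraries left out (adjusted p between 0.0507 and 0.198). Without the R8 libraries of E18.5, Pmvk (0.27, adjusted p = 0.132) and Insig1 (-0.28, adjusted p = 0.128) missed the threshold, and without its R10 libraries Sqle did (-0.24, adjusted p = 0.0721). Msmo1 and Srebf2 missed it with either set left out, Msmo1 also without the filter on low counts (adjusted p = 0.0761), and Srebf2 also with RLE factors (adjusted p = 0.0558) and with the series as a covariate (adjusted p = 0.0534).

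Single stages gave fewer calls than the mean over the stages. At E10.5, where 2.35% of all tested genes were called higher and 2.17% lower, the members had 0 higher and 2 lower calls, Scd2 and Fads2. Fads2, the first desaturase of the polyunsaturated pathway, had 7.01, 8.17, 8.66 and 8.74 CPM in BAM, against 18.1, 23.4, 26.2 and 26.8 CPM in microglia there, with a log2 difference of -1.55 ± 0.37 (adjusted p = 0.00668). At E11.5, where 2.86% of all tested genes were called higher and 3.84% lower, 1 member was higher, Stard4, and 1 lower, Scd2. At E12.5, where 4.13% of all tested genes were called higher and 4.46% lower, 1 was higher, Stard4, and 2 were lower, Scd2 and Scap. At E14.5, where 3.98% of all tested genes were called higher and 3.29% lower, 0 were higher and 3 were lower, Scd2, Sc5d and Dhcr7. When libraries of the compared groups alone were fitted, Dhcr7 missed the threshold there (-1.10, adjusted p = 0.0711).

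The population differences were most numerous at the 2 latest stages. At E16.5, where 7.15% of all tested genes were called higher and 6.79% lower, 1 member was higher, Stard4, and 8 were lower: Scd2, Dhcr7, Scap, Srebf1, Sc5d, Fasn, Elovl5 and Acaca. At E18.5, where 6.7% of all tested genes were called higher and 8.76% lower, 2 were higher, Stard4 and Elovl6, and 7 were lower: Scd2, Scap, Dhcr7, Srebf1, Elovl5, Fasn and Cyp51. Elovl6 had 3.801, 10.05, 10.6 and 14.3 CPM in BAM, against 2.38, 5.13, 5.99 and 6.45 CPM in microglia at E18.5, where the groups overlapped, with a log2 difference of 0.87 ± 0.30 (adjusted p = 0.0449). Fasn at E18.5 had 68.6, 72.9, 77.9 and 82.4 CPM in BAM, against 94.8, 125, 129 and 131 CPM in microglia, and Acaca at E16.5 had 7.802, 15.8 and 19.04 CPM in BAM, against 26.04, 35.4 and 35.9 CPM in microglia. In both cases the groups stood apart, with log2 differences of -0.77 ± 0.23 (adjusted p = 0.0157) for Fasn and -1.15 ± 0.29 (adjusted p = 0.00412) for Acaca. Within series R10 alone, where E18.5 has 1 library of each population, 4 members were called at E18.5 in place of 9, and the log2 difference of Stard4 was 0.29, adjusted p = 0.873, that of Dhcr7 -1.07, adjusted p = 0.109, that of Elovl5 -0.84, adjusted p = 0.167, that of Fasn -0.82, adjusted p = 0.564 and that of Cyp51 -0.56, adjusted p = 0.631. Within R8 alone Cyp51 (-0.65, adjusted p = 0.0635), Fasn (-0.70, adjusted p = 0.0836) and Elovl6 (0.66, adjusted p = 0.239) missed the threshold. Elovl6 also did so under the block of adjacent library numbers (0.84, adjusted p = 0.071) and when libraries of the compared groups alone were fitted (0.87, adjusted p = 0.159), and Cyp51 with RLE factors (adjusted p = 0.06) and with only the compared groups (adjusted p = 0.109). At E16.5, Fasn missed it without the filter on low counts (adjusted p = 0.142) and with the series as a covariate (adjusted p = 0.0518), and Elovl5 without the filter (adjusted p = 0.0571). Where an arm has 1 library, that lone library is taken to vary as much as the groups with replicates.

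Leaving out libraries singly, some stage calls ended. At E10.5, Scd2 was no longer called without BAM E10.5 replicate 3 or without BAM E10.5 replicate 4 (adjusted p between 0.0518 and 0.0636). At E11.5, Stard4 was no longer called without microglia E11.5 replicate 2 (adjusted p = 0.0779). At E12.5, for Scap that happened with any 1 of 5 of the 6 libraries left out (adjusted p between 0.0668 and 0.129). At E14.5, Sc5d was no longer called without microglia E14.5 replicate 1 (adjusted p = 0.161). At E16.5, for Sc5d that happened with any 1 of 4 of the 6 libraries left out (adjusted p between 0.0513 and 0.168). Acaca was no longer called without BAM E16.5 replicate 3 (adjusted p = 0.0616). For Fasn that happened with any 1 of 5 of the 6 libraries left out (adjusted p between 0.0752 and 0.333). For Elovl5 that happened with any 1 of 4 of the 6 libraries left out (adjusted p between 0.0634 and 0.158). At E18.5, for Cyp51 that happened with any 1 of 5 of the 8 libraries left out (adjusted p between 0.0793 and 0.249). Fasn was no longer called without BAM E18.5 replicate 3 (adjusted p = 0.053). For Elovl6 that happened with any 1 of 5 of the 8 libraries left out (adjusted p between 0.0716 and 0.215).

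Between E10.5 and E11.5, which both lie in library series R10, RNA of 7 members, all enzymes of sterol synthesis, fell in both populations. In BAM 8 of the 33 members were lower at E11.5 and 1 was higher, where 2.98% of all tested genes were called higher and 1.46% lower. In microglia 15 were lower and 1 was higher, where 5.28% of all tested genes were called higher and 3.12% lower. The members' median log2 change was -0.54 in BAM and -0.72 in microglia, and that of all tested genes 0 in both. Of these genes 7 fell in both populations, which is 7 of the 8 in BAM and 7 of the 15 in microglia: Acat2, Idi1, Fdft1, Sqle, Cyp51, Msmo1 and Sc5d. The share of all tested genes called lower in both populations was not counted. Dhcr7 was called in BAM alone, and Hmgcs1, Mvd, Lss, Insig1, Srebf2, Stard4, Elovl6 and Fads2 in microglia alone. Whether the change from E10.5 to E11.5 differs between the populations was not tested.

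Sqle, an oxygen-requiring step that commits squalene to sterol, showed a fall of more than 1 log2 unit in both populations. In BAM it had 23.9, 37.7 and 47.8 CPM at E11.5, against 75.3, 81.7, 112 and 121 CPM at E10.5. In microglia it had 34.1, 36.4 and 52.3 CPM at E11.5, against 80.2, 83.8, 107 and 119 CPM at E10.5. The stages did not overlap in either population, and the log2 changes were -1.41 ± 0.26 (adjusted p = 0.000519) in BAM and -1.23 ± 0.25 (adjusted p = 0.00113) in microglia. The isopentenyl diphosphate isomerase Idi1 had 12.3, 14.9 and 17 CPM at E11.5, against 22.1, 31.1, 35.7 and 40.8 CPM at E10.5 in BAM. Microglia had 9.71, 13.6 and 17.5 CPM at E11.5, against 37.3, 41.6, 45.2 and 47.1 CPM at E10.5. Here too the stages stood apart, with log2 changes of -1.12 ± 0.27 (adjusted p = 0.0112) in BAM and -1.63 ± 0.28 (adjusted p = 0.00011) in microglia.

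Acat2, the cytosolic thiolase that joins 2 acetyl-CoA units at the entry to the pathway, had 35.9, 40.4 and 47.3 CPM at E11.5, against 72.9, 73.7, 76.9 and 103 CPM at E10.5 in BAM. The microglia libraries had 36.8, 37.8 and 38.4 CPM at E11.5, against 83.01, 87.2, 97.9 and 111 CPM at E10.5. Its log2 changes were -0.97 ± 0.15 (adjusted p = 4.59e-05) in BAM and -1.30 ± 0.15 (adjusted p = 1.1e-07) in microglia, with no overlap between stages. A share of its sequence (33.9% of words of 75 bases) also occurs in Acat3 or Tcp1, and for Idi1 the share is 23.6% (5 predicted genes), so some of their counts may belong elsewhere. Cyp51 had 24.5, 25.7 and 40.1 CPM at E11.5, against 49.7, 62.7, 70.6 and 82.4 CPM at E10.5 in BAM. In microglia the values were 30.9, 42.2 and 54.2 CPM at E11.5, against 76.8, 79.3, 80.8 and 111 CPM at E10.5. Its log2 changes were -1.12 ± 0.25 (adjusted p = 0.00484) in BAM and -1.01 ± 0.25 (adjusted p = 0.006) in microglia, again without overlap.

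Msmo1 had 44.2, 51.3 and 51.9 CPM at E11.5, against 72.2, 79.5, 81.01 and 99.2 CPM at E10.5 in BAM. In microglia it had 32.2, 38.4 and 41.9 CPM at E11.5, against 75.2, 82.4, 93.7 and 112 CPM at E10.5. The stages stood apart in both, and the log2 changes were -0.73 ± 0.18 (adjusted p = 0.0101) and -1.25 ± 0.18 (adjusted p = 6.56e-06), BAM given first. Fdft1 had 25.6, 27.6 and 32.4 CPM at E11.5, against 47.8, 54.2, 55.9 and 58.2 CPM at E10.5 in BAM. Microglia had 27.3, 29.9 and 30.7 CPM at E11.5, against 46.99, 50.01, 62.7 and 74.5 CPM at E10.5. Its stages did not overlap either, and the log2 changes were -0.90 ± 0.23 (adjusted p = 0.0143) in BAM and -0.97 ± 0.23 (adjusted p = 0.00393) in microglia. For Sc5d the group means were 13.9 ± 4.38 CPM at E11.5 and 27.01 ± 3.35 CPM at E10.5 in BAM, with a log2 change of -0.94 ± 0.26 (adjusted p = 0.0303). In microglia the Sc5d means were 24.3 ± 3.49 CPM at E11.5 and 43.2 ± 8.32 CPM at E10.5, with a log2 change of -0.80 ± 0.26 (adjusted p = 0.0482) (SD, n = 3 and 4).

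Hmgcs1, the synthase that feeds mevalonate formation, had 77.1, 81.02 and 89.1 CPM at E11.5, against 108, 114, 116 and 143 CPM at E10.5 in BAM. In microglia the libraries had 60.98, 63.5 and 95.6 CPM at E11.5, against 103, 111, 128 and 149 CPM at E10.5. The stages stood apart in both populations, with log2 changes of -0.53 ± 0.17 (adjusted p = 0.0657) in BAM, not called, and -0.72 ± 0.17 (adjusted p = 0.00422) in microglia. Fads2 had 3.01, 3.65 and 3.92 CPM at E11.5, against 7.01, 8.17, 8.66 and 8.74 CPM at E10.5 in BAM. In microglia the libraries had 3.66, 6.36 and 6.95 CPM at E11.5, against 18.1, 23.4, 26.2 and 26.8 CPM at E10.5. Its log2 changes were -1.18 ± 0.40 (adjusted p = 0.0898) in BAM, not called, and -2.04 ± 0.41 (adjusted p = 0.000973) in microglia. Fads1, its partner desaturase, was the member that rose in both populations. It had 162, 188 and 204 CPM at E11.5, against 115, 122, 122 and 155 CPM at E10.5 in BAM. The microglia libraries had 153, 165 and 210.1 CPM at E11.5, against 110.4, 111, 111 and 118 CPM at E10.5. The log2 changes were 0.55 ± 0.12 (adjusted p = 0.0054) in BAM and 0.67 ± 0.12 (adjusted p = 0.000267) in microglia, without overlap between stages.

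Dhcr7 had 31.2, 35.01 and 44.98 CPM at E11.5, against 55.7, 70.4, 70.4 and 75.2 CPM at E10.5 in BAM, where it fell by 0.86 on the log2 scale (adjusted p = 0.00416), and in microglia its log2 change was -0.51 ± 0.18 (adjusted p = 0.0769). Among the regulators, the log2 changes of Insig1 and Srebf2 in BAM were -0.74 ± 0.24 (adjusted p = 0.0621) and -0.54 ± 0.20 (adjusted p = 0.113). Both fell in microglia, by 0.88 and 0.63 on the log2 scale (adjusted p = 0.0139 and 0.0368). Srebf1, Scap and Insig2 were called in neither population, with log2 changes of 0.14 ± 0.15, -0.29 ± 0.18 and 0.14 ± 0.15 in BAM and 0.22 ± 0.15, -0.18 ± 0.18 and 0.19 ± 0.15 in microglia. Stard4 was not called in BAM, with a log2 change of 0.01 ± 0.21 (adjusted p = 1). Microglia had 18.8, 25.2 and 28.3 CPM at E11.5, against 32.1, 40.1, 40.4 and 43.97 CPM at E10.5, a log2 change of -0.68 ± 0.21 (adjusted p = 0.0409). Mvd, Lss and Elovl6 in microglia changed by -0.83 ± 0.22, -1.20 ± 0.31 and -1.18 ± 0.32 (adjusted p = 0.0138, 0.0111 and 0.0157).

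**Figure D3:**
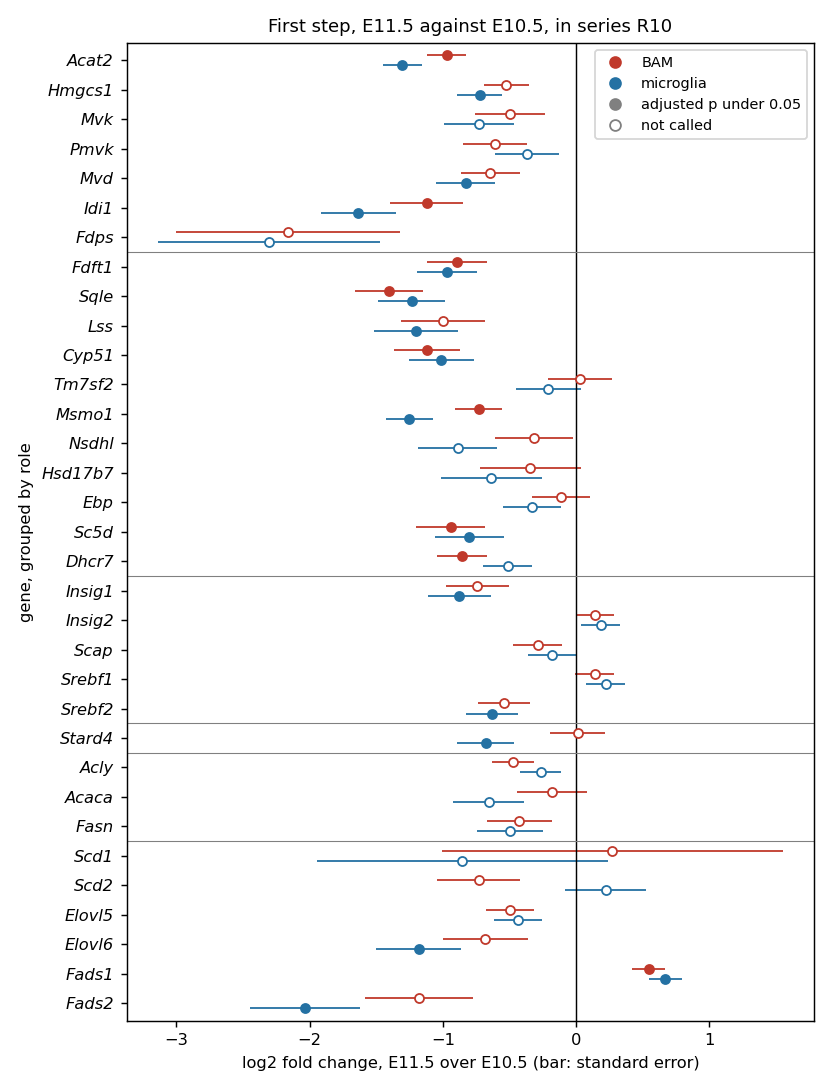
Log2 change from E10.5 to E11.5 of the 33 genes in BAM (red) and microglia (blue), with the standard error as bars and filled points where the edgeR adjusted p was under 0.05. The sterol enzymes lie left of 0 in both populations except Tm7sf2 in BAM (0.03), and Fads1 is the filled point right of 0 in both.

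The summed level of the 18 mevalonate, squalene and sterol ring enzymes was 536 ± 41.6 CPM at E11.5 against 907 ± 88.6 CPM at E10.5 in BAM (SD, n = 3 and 4). In microglia it was 543 ± 17.8 CPM at E11.5 against 1022 ± 112 CPM at E10.5. From E11.5 on the sum stayed between 391 and 607 CPM in all BAM libraries and between 441 and 607 CPM in all microglia libraries. Proliferation genes moved at the same time. The sum of 15 such genes was 5138 ± 227 CPM at E11.5 against 6386 ± 552 CPM at E10.5 in BAM, with 1 of 15 called lower. It was 4692 ± 549 CPM against 6349 ± 270 CPM in microglia for the same stages, with 7 of 15 called lower. Their part in the change of the sterol genes was not tested. At E12.5, E14.5, E16.5 and E18.5 the sterol enzyme sum averaged 513, 491, 402 and 496 CPM in BAM and 568, 603, 461 and 518 CPM in microglia. The proliferation sum averaged 3919, 2603, 2383 and 1852 CPM in BAM and 3041, 2786, 1859 and 2530 CPM in microglia at the same stages. In microglia both sums were lowest at E16.5, and in BAM the sterol sum was lowest at E16.5 and the proliferation sum at E18.5.

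**Figure D4:**
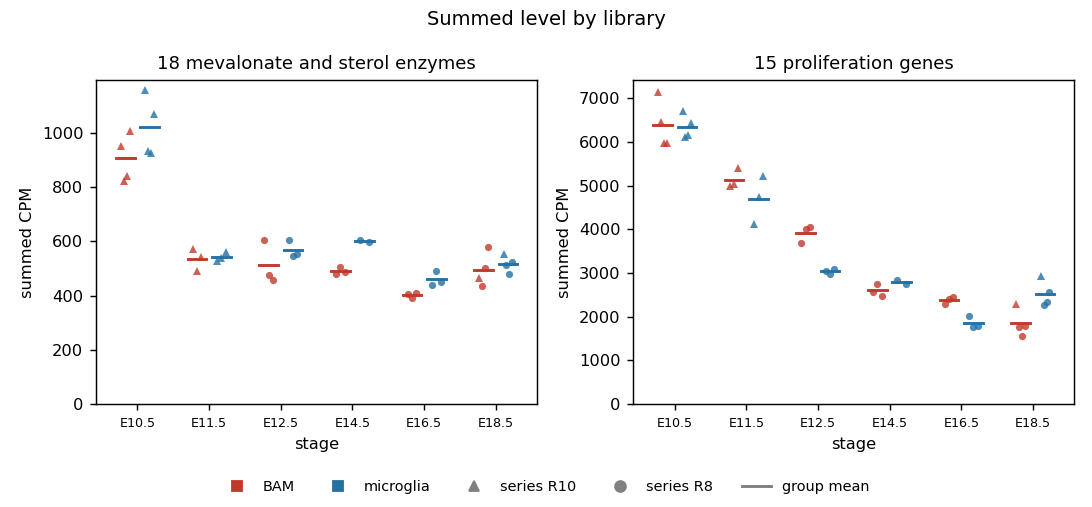
Summed CPM of the 18 sterol enzymes (left panel) and of 15 proliferation genes (right panel) in each library by embryonic day, BAM (red, left of each stage) and microglia (blue, right). Both sums are highest at E10.5. The sterol sum lies between 391 and 607 CPM from E11.5 on, and the proliferation sum is lowest at E18.5 in BAM and at E16.5 in microglia.

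For the change between E10.5 and E11.5, single libraries decided some calls. In BAM, Idi1 was no longer called without BAM E11.5 replicate 2 (adjusted p = 0.0751). Fdft1 was no longer called without BAM E11.5 replicate 1 or without BAM E11.5 replicate 3 (adjusted p between 0.0639 and 0.0786). Msmo1 was no longer called without BAM E11.5 replicate 3 (adjusted p = 0.0701). For Sc5d that happened with any 1 of 5 of the 7 libraries left out (adjusted p between 0.0527 and 0.199). Fads1 was no longer called without BAM E11.5 replicate 1 (adjusted p = 0.0522). In microglia, Mvd was no longer called without microglia E10.5 replicate 1 or without microglia E11.5 replicate 3 (adjusted p between 0.0542 and 0.16). Lss was no longer called without microglia E10.5 replicate 1 or without microglia E11.5 replicate 1 (adjusted p between 0.0559 and 0.0854). Cyp51 was no longer called without microglia E11.5 replicate 1 (adjusted p = 0.0612). For Sc5d that happened with any 1 of 7 of the 7 libraries left out (adjusted p between 0.0567 and 0.154). For Insig1 that happened with any 1 of 3 of the 7 libraries left out (adjusted p between 0.0654 and 0.0747). For Srebf2 that happened with any 1 of 5 of the 7 libraries left out (adjusted p between 0.0728 and 0.154). For Stard4 that happened with any 1 of 6 of the 7 libraries left out (adjusted p between 0.0588 and 0.189). Elovl6 was no longer called without microglia E11.5 replicate 1 or without microglia E11.5 replicate 2 (adjusted p between 0.0636 and 0.0977). When libraries of the compared groups alone were fitted, Idi1, Sc5d and Fads1 in BAM (adjusted p between 0.0516 and 0.104) and Mvd, Srebf2 and Stard4 in microglia (adjusted p between 0.058 and 0.063) missed the threshold. Without the filter on low counts, Sc5d and Stard4 in microglia did (adjusted p = 0.063 and 0.0747). The count of called members in microglia was 10 without E10.5 replicate 1 or without E11.5 replicate 1.

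Over the whole window, most members were lower at E18.5 than at E10.5. In BAM 21 of 33 fell and 4 rose, where 22.7% of all tested genes were called higher and 14.8% lower. In microglia 22 fell and 4 rose, where 20.8% of all tested genes were called higher and 14.4% lower. The members' median log2 change was -0.72 in BAM and -0.88 in microglia, against 0.29 in each for all tested genes. Of the genes that fell, 17 did so in both (17 of 21 in BAM and 17 of 22 in microglia), and Scd2 and Fads1 rose in both populations. Here too, the share of all tested genes called in both populations was not counted. The comparisons of E18.5 with E10.5 use the same E10.5 libraries as the comparison with E11.5, so they are not independent of it. By step, the mevalonate and isoprenoid enzymes were lower in 6 of 7 cases in BAM and 7 of 7 in microglia, and the sterol ring enzymes in 6 and 7 of 11. The desaturases and elongases included risers and fallers, with 4 higher and 2 lower of 6 in BAM and 2 higher and 3 lower in microglia. All 15 proliferation genes were lower at E18.5 in both populations, and their part in these changes was not tested.

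Sqle in BAM had 12.46, 17.9, 21.3 and 27.7 CPM at E18.5, against 75.3, 81.7, 112 and 121 CPM at E10.5. In microglia the values were 16.46, 18.49, 26.8 and 28.4 CPM at E18.5, against 80.2, 83.8, 107 and 119 CPM at E10.5. The log2 changes were -2.33 ± 0.24 (adjusted p = 8.83e-10) in BAM and -2.05 ± 0.24 (adjusted p = 1.26e-08) in microglia, with no overlap of stages. Acat2 at E18.5 had 27.5, 32.3, 34.2 and 34.5 CPM in BAM and 24.6, 25.9, 26.7 and 27.3 CPM in microglia, below every E10.5 library given above. Its log2 changes were -1.38 ± 0.14 (adjusted p = 3.1e-10) in BAM and -1.80 ± 0.14 (adjusted p = 9.14e-13) in microglia. Idi1 at E18.5 had 9.01, 11.6, 11.8 and 13.6 CPM in BAM and 6.14, 6.396, 8.04 and 8.16 CPM in microglia, with log2 changes of -1.53 ± 0.25 (adjusted p = 8.33e-06) in BAM and -2.51 ± 0.26 (adjusted p = 1.38e-09) in microglia. Acly had 217, 259, 272 and 273 CPM at E18.5, against 332, 471, 509.7 and 566 CPM at E10.5 in BAM. In microglia it had 226, 231, 270 and 326 CPM at E18.5, against 509.9, 551, 553 and 591 CPM at E10.5. The stages stood apart in both, with log2 changes of -0.91 ± 0.15 (adjusted p = 4.55e-06) and -1.002 ± 0.15 (adjusted p = 9.29e-07), BAM given first.

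The elongase Elovl6 had 3.801, 10.05, 10.6 and 14.3 CPM at E18.5, against 22.7, 23.8, 29.4 and 33.3 CPM at E10.5 in BAM, a change of -1.53 ± 0.30 (adjusted p = 9.19e-05) on the log2 scale. Its microglia values were 2.38, 5.13, 5.99 and 6.45 CPM at E18.5, against 32.2, 33.5, 35.6 and 38.6 CPM at E10.5, a log2 change of -2.77 ± 0.31 (adjusted p = 8.32e-09). Elovl5 had 35.3, 44.7, 54.7 and 61.7 CPM at E18.5, against 77.5, 81.4, 108 and 116 CPM at E10.5 in BAM, with no overlap and a log2 change of -0.99 ± 0.17 (adjusted p = 1.21e-05). In microglia its log2 change was -0.53 ± 0.17 (adjusted p = 0.0122). Mevalonate diphosphate decarboxylase Mvd had 20.5, 22.2, 29.6 and 33.6 CPM at E18.5, against 47.5, 53.3, 61.9 and 67.5 CPM at E10.5 in BAM. Microglia had 19.8, 21.8, 23.1 and 24.1 CPM at E18.5, against 50.3, 54.5, 56.1 and 69.2 CPM at E10.5. Its log2 changes were -1.15 ± 0.21 (adjusted p = 2.52e-05) in BAM and -1.31 ± 0.21 (adjusted p = 3.92e-06) in microglia, again with the stages apart. Stard4 changed by -0.72 ± 0.20 (adjusted p = 0.00365) on the log2 scale in BAM. Its microglia values were 10.6, 11.04, 16.2 and 18.8 CPM at E18.5, against 32.1, 40.1, 40.4 and 43.97 CPM at E10.5, a log2 change of -1.40 ± 0.20 (adjusted p = 7.17e-07). Msmo1 changed by -1.01 ± 0.16 in BAM and -0.99 ± 0.16 in microglia, and Dhcr7 by -0.97 ± 0.17 in BAM, where it fell, and by -0.31 ± 0.17 in microglia, where it was not called (adjusted p = 0.147).

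Scd2 rose in both populations. In BAM it had 195, 196, 201 and 257 CPM at E18.5, against 91.97, 94.8, 144 and 158 CPM at E10.5. The microglia libraries had 567, 653, 704 and 828 CPM at E18.5, against 227, 235, 287 and 338 CPM at E10.5. The stages did not overlap, and the log2 changes were 0.76 ± 0.28 (adjusted p = 0.0332) in BAM and 1.41 ± 0.29 (adjusted p = 0.000201) in microglia. Beside it, 6 of 8 oligodendrocyte lineage and 7 of 11 radial glia and neuron markers were called higher at E18.5 in BAM. In microglia 3 of 8 and 7 of 11 were. Called lower were 0 of 8 and 2 of 11 in BAM, and 0 of 8 and 1 of 11 in microglia. Of all tested genes 22.7% were called higher and 14.8% lower in BAM, and 20.8% higher and 14.4% lower in microglia. The oligodendrocyte sum averaged 235 ± 19.8 CPM at E18.5 and 132 ± 15.1 CPM at E10.5 in BAM, and 161.5 ± 10.6 CPM at E18.5 and 145 ± 11.1 CPM at E10.5 in microglia (SD, n = 4 each). Cnp alone had 91.4 to 135 CPM over all BAM libraries, where Sox10 and Olig2 reached at most 2.74 and 1.77 CPM. The radial glia and neuron sum averaged 542 ± 141 CPM at E18.5 and 500 ± 26.3 CPM at E10.5 in BAM. In microglia that sum was lower at E18.5, with 328 ± 75.5 CPM against 622 ± 36.6 CPM at E10.5. The sum includes Vim, at 104 CPM or more in every BAM library and 40.8 CPM or more in every microglia library. It also includes Nes, at 71.2 CPM or more in every microglia library. Each other marker of this list had a lowest microglia value of at most 2.82 CPM. The part of these markers in the Scd2 change was not tested. Fads1 had 192, 194, 200.1 and 229 CPM at E18.5, against 115, 122, 122 and 155 CPM at E10.5 in BAM. In microglia the values were 189, 207, 221 and 246 CPM at E18.5, against 110.4, 111, 111 and 118 CPM at E10.5. Its log2 changes were 0.63 ± 0.11 (adjusted p = 2.98e-05) and 1.002 ± 0.12 (adjusted p = 1.01e-08), BAM given first, with the stages apart. Among the regulators, Insig2 and Srebf1 rose in microglia. Insig2 had 39.8, 41.5, 45.8 and 51.6 CPM at E18.5, against 27.5, 32.01, 32.6 and 36.7 CPM at E10.5, and Srebf1 had 126, 127, 150.4 and 164 CPM at E18.5, against 90.7, 101, 103 and 115 CPM at E10.5. Neither overlapped between stages, and their log2 changes there were 0.53 ± 0.14 (adjusted p = 0.00227) and 0.53 ± 0.14 (adjusted p = 0.00229). In BAM neither was called, with log2 changes of 0.24 ± 0.14 (adjusted p = 0.163) for Insig2 and 0.10 ± 0.14 (adjusted p = 0.618) for Srebf1. Srebf2 changed by -0.54 ± 0.18 in BAM and -0.96 ± 0.18 in microglia, Insig1 by -0.98 ± 0.22 in BAM and -1.25 ± 0.22 in microglia, and all 4 of these changes were called.

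Of the 4 E18.5 libraries of each population 3 belong to series R8 and all E10.5 libraries to R10. Within R10 alone, with 1 E18.5 library, 18 of the 25 calls in BAM and 15 of the 26 in microglia were kept. Those that missed the threshold in BAM were Hmgcs1 (-0.45, adjusted p = 0.219), Cyp51 (-0.65, adjusted p = 0.174), Srebf2 (-0.79, adjusted p = 0.0741), Acaca (-0.79, adjusted p = 0.251), Fasn (-0.69, adjusted p = 0.283), Scd2 (0.60, adjusted p = 0.449) and Fads2 (0.19, adjusted p = 0.927). In microglia they were Hmgcs1, Pmvk, Fdps, Cyp51, Nsdhl, Hsd17b7, Insig2, Srebf2, Acaca, Elovl5 and Fads2, with log2 changes of the same sign and adjusted p between 0.0549 and 0.393. With only R8 libraries at E18.5, which sets the stages wholly across the series, 22 calls in BAM (not Pmvk, Ebp and Scd2, adjusted p between 0.0629 and 0.125) and 25 in microglia (not Fdps, adjusted p = 0.0633) were kept. With the series as a covariate, the same 7 genes in BAM that missed the threshold within R10 did so (adjusted p between 0.0714 and 0.478), and in microglia Hmgcs1, Fdps, Cyp51, Nsdhl, Insig2, Acaca and Elovl5 did (adjusted p between 0.0538 and 0.327). Scd2 in BAM and Fdps in microglia also missed it without the filter on low counts (adjusted p = 0.0861 and 0.0606). Ebp in BAM did with RLE factors, DESeq2 and only the compared groups (adjusted p between 0.0785 and 0.163), Pmvk in BAM with only the compared groups (adjusted p = 0.11) and Nsdhl in microglia with RLE factors (adjusted p = 0.0589). Single libraries also mattered. In BAM, Mvk was no longer called without BAM E18.5 replicate 2 (adjusted p = 0.0534). For Pmvk that happened with any 1 of 3 of the 8 libraries left out (adjusted p between 0.0674 and 0.181). For Ebp that happened with any 1 of 5 of the 8 libraries left out (adjusted p between 0.0513 and 0.237). Srebf2 was no longer called without BAM E10.5 replicate 1 or without BAM E18.5 replicate 2 (adjusted p between 0.0545 and 0.119). Acaca was no longer called without BAM E10.5 replicate 1 (adjusted p = 0.0679). Fasn was no longer called without BAM E10.5 replicate 1 (adjusted p = 0.184). For Scd2 that happened with any 1 of 4 of the 8 libraries left out (adjusted p between 0.0556 and 0.123). In microglia, for Fdps that happened with any 1 of 5 of the 8 libraries left out (adjusted p between 0.0609 and 0.089). For Nsdhl that happened with any 1 of 6 of the 8 libraries left out (adjusted p between 0.0589 and 0.117). Acaca was no longer called without microglia E10.5 replicate 1 (adjusted p = 0.103). Elovl5 was no longer called without microglia E10.5 replicate 1 (adjusted p = 0.0559). For Fads2 that happened with any 1 of 4 of the 8 libraries left out (adjusted p between 0.0578 and 0.087).

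From E12.5 to E18.5 fewer members were called in each population than from E10.5 to E18.5. In BAM 2 rose and 2 fell, where 5.3% of all tested genes were called higher and 5.4% lower. In microglia 5 rose and 3 fell, where 4.11% of all tested genes were called higher and 2.81% lower. The median log2 change of the members was 0.06 in BAM and 0.12 in microglia, with 0.03 and 0 for all tested genes. Scd2 rose in both: at E12.5 its levels were those given above, and the log2 changes were 1.72 ± 0.32 (adjusted p = 0.00031) in BAM and 1.17 ± 0.31 (adjusted p = 0.0164) in microglia. The other riser in BAM was Fads2, by 1.29 ± 0.40 (adjusted p = 0.0311). Acat2 and Elovl6 fell in both. Acat2 had 27.5, 32.3, 34.2 and 34.5 CPM at E18.5, against 37.8, 41.1 and 59.8 CPM at E12.5 in BAM. In microglia it had 24.6, 25.9, 26.7 and 27.3 CPM at E18.5, against 41.98, 44.3 and 49.7 CPM at E12.5. The stages stood apart in both, with log2 changes of -0.46 ± 0.14 (adjusted p = 0.0303) in BAM and -0.63 ± 0.14 (adjusted p = 0.00388) in microglia. Elovl6 had 3.801, 10.05, 10.6 and 14.3 CPM at E18.5, against 19.6, 23.4 and 33.4 CPM at E12.5 in BAM. Microglia had 2.38, 5.13, 5.99 and 6.45 CPM at E18.5, against 9.799, 14.7 and 17.2 CPM at E12.5. Here too they stood apart, with log2 changes of -1.34 ± 0.31 (adjusted p = 0.00328) in BAM and -1.33 ± 0.32 (adjusted p = 0.0066) in microglia.

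In microglia, Elovl5 had 73.9, 74.3, 82.4 and 88.9 CPM at E18.5, against 46.3, 52.7 and 59.4 CPM at E12.5 and Fads1 had 189, 207, 221 and 246 CPM at E18.5, against 153, 155 and 200.1 CPM at E12.5. Elovl5 stages stood apart and Fads1 stages overlapped, with log2 changes of 0.77 ± 0.18 (adjusted p = 0.00596) and 0.52 ± 0.12 (adjusted p = 0.00641). Sc5d had 23.01, 27.9, 29.9 and 50.9 CPM at E18.5, against 16.4, 19.98 and 25.02 CPM at E12.5, and Srebf1 had 126, 127, 150.4 and 164 CPM at E18.5, against 82.8, 127 and 131 CPM at E12.5. Both overlapped, with log2 changes of 0.87 ± 0.26 (adjusted p = 0.0366) and 0.48 ± 0.15 (adjusted p = 0.0421). Mevalonate kinase Mvk had 10.3, 11.4, 14.7 and 17.02 CPM at E18.5, against 19.4, 29.4 and 31.8 CPM at E12.5, without overlap and with a log2 change of -0.86 ± 0.26 (adjusted p = 0.0364). Within series R8, with the 1 R10 library at E18.5 left out, 3 of these 8 microglia calls were kept (Acat2, Elovl6 and Elovl5), and Mvk (-0.84, adjusted p = 0.084), Sc5d (0.47, adjusted p = 0.338), Srebf1 (0.36, adjusted p = 0.209), Scd2 (0.98, adjusted p = 0.0875) and Fads1 (0.35, adjusted p = 0.102) missed the threshold. In BAM the 4 calls were kept within R8. With RLE factors, without the filter or with only the compared groups, Acat2 in BAM missed the threshold (adjusted p between 0.0584 and 0.0745), as did Srebf1 in microglia (adjusted p between 0.0564 and 0.126). With only the compared groups Fads2 in BAM (adjusted p = 0.132) and Sc5d and Fads1 in microglia (adjusted p = 0.0888 and 0.0507) missed it, and with the series as a covariate Mvk, Sc5d and Srebf1 in microglia did (adjusted p between 0.0614 and 0.146). Leaving out single libraries in BAM, for Acat2 the call ended with any 1 of 3 of the 7 libraries left out (adjusted p between 0.0625 and 0.171). For Fads2 that happened with any 1 of 3 of the 7 libraries left out (adjusted p between 0.178 and 0.264). In microglia, for Mvk that happened with any 1 of 5 of the 7 libraries left out (adjusted p between 0.0602 and 0.195). For Sc5d that happened with any 1 of 3 of the 7 libraries left out (adjusted p between 0.107 and 0.285). For Srebf1 that happened with any 1 of 4 of the 7 libraries left out (adjusted p between 0.0538 and 0.503). Scd2 was no longer called without microglia E18.5 replicate 1 or without microglia E12.5 replicate 3 (adjusted p between 0.0617 and 0.187). Elovl5 was no longer called without microglia E12.5 replicate 3 (adjusted p = 0.0574). Fads1 was no longer called without microglia E12.5 replicate 2 or without microglia E12.5 replicate 3 (adjusted p between 0.0526 and 0.143).

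The test of the difference between the populations' changes, BAM change minus microglia change from E10.5 to E18.5, called 3 members, 2 higher and 1 lower, where 3.09% of all tested genes were called higher and 3.61% lower. Lanosterol synthase Lss, which closes the sterol rings, had 23.3, 24.98, 25.6 and 31.5 CPM at E18.5, against 18.3, 20.1, 24.04 and 28.9 CPM at E10.5 in BAM. The microglia libraries had 9.604, 15.3, 17.7 and 17.9 CPM at E18.5, against 26.4, 26.6, 40.2 and 49.9 CPM at E10.5. The stages overlapped in BAM and not in microglia, where the gene fell, and the difference of the log2 changes was 1.37 ± 0.40 (adjusted p = 0.0308). Scap had 26.5, 28.3, 32.4 and 38.4 CPM at E18.5, against 45.3, 45.6, 46.98 and 63.9 CPM at E10.5 in BAM. In microglia the values were 64.97, 68.5, 72.01 and 72.3 CPM at E18.5, against 58.8, 59.8, 68.2 and 75.9 CPM at E10.5. It fell in BAM and was not called in microglia, and the difference was -0.86 ± 0.24 (adjusted p = 0.0212). For Fads2 the difference was 2.34 ± 0.51 (adjusted p = 0.0023). Against E12.5 the same test called 0 members, where 0.97% of all tested genes were called higher and 1.28% lower. By edgeR 3 of the 33 had an unadjusted p under 0.05 there, and DESeq2 also called 0. The share of all tested genes under that unadjusted threshold was not counted, so nothing is read from the 3.

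For Lss the call ended with any 1 of 6 of the 16 libraries left out (adjusted p between 0.0605 and 0.0851). Scap was no longer called without BAM E10.5 replicate 1 or without BAM E18.5 replicate 4 (adjusted p between 0.0518 and 0.0695). Without the R10 libraries of E18.5 both missed the threshold (1.25, adjusted p = 0.0928 for Lss and -0.73, adjusted p = 0.099 for Scap). Within series R10 the differences were 1.94, adjusted p = 0.178 for Lss, -1.12, adjusted p = 0.206 for Scap and 1.85, adjusted p = 0.335 for Fads2, with 1 library of each population at E18.5.

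Fads2 and Scd1 rose in BAM beside markers of other cells. Fads2 had 9.73, 17.8, 19.4 and 36.6 CPM at E18.5, against 7.01, 8.17, 8.66 and 8.74 CPM at E10.5 in BAM. In microglia it had 7.18, 8.42, 13.4 and 16.3 CPM at E18.5, against 18.1, 23.4, 26.2 and 26.8 CPM at E10.5. It rose in BAM by 1.32 ± 0.36 on the log2 scale (adjusted p = 0.00398) and fell in microglia, -1.02 ± 0.36 (adjusted p = 0.0261). Within R10 alone, with 1 library at E18.5, the log2 change of Fads2 in BAM was 0.19. Scd1 had 6.62, 8.13, 8.93 and 16.7 CPM at E18.5, against 0, 0, 0.141 and 0.3395 CPM at E10.5 in BAM. These are 840 counts over the 4 E18.5 libraries against 14 counts over the 4 E10.5 libraries, so the fitted log2 change of 6.23 ± 1.24 (adjusted p = 0.000123) rests on very low E10.5 counts. All Scd1 counts were even, and if both reads of a pair were counted they stand for fewer fragments. In microglia Scd1 had 3.58, 4.05, 4.49 and 5.61 CPM at E18.5, against 0.636, 1.02, 1.31 and 1.45 CPM at E10.5, with a log2 change of 2.07 ± 1.01 (adjusted p = 0.11).

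The summed level of 8 mesenchymal and mural markers was 196 to 689 CPM at E18.5 and 6.48 to 29.9 CPM at E10.5 in BAM, and 8 of 8 were called higher at E18.5, where 22.7% of all tested genes were. In microglia it was 118 to 245 CPM at E18.5 and 2.48 to 20.4 CPM at E10.5, with 7 of 8 called higher, where 20.8% of all tested genes were. Dcn and Rgs5 were at 0 in all 4 BAM libraries at E10.5. Endothelial markers in BAM summed to 85.1 to 340.1 CPM at E18.5 and 71.8 to 89.6 CPM at E10.5, with 4 of 7 called higher and 0 lower. Of the erythroid markers 5 of 8 were called higher and 2 lower, where 14.8% of all tested genes were called lower. Within BAM at E18.5, replicate 4 had the most Fads2 (36.6 CPM), the most Scd1 (16.7 CPM) and the highest mesenchymal sum (688.8 CPM), and replicate 1 had the least Fads2 (9.73 CPM) and the lowest sum (196.3 CPM), while the least Scd1 was in replicate 2 (6.62 CPM). Replicate 1 is also the R10 library of that group, and the others belong to R8. At E12.5, BAM replicate 1 was highest in the same 3 values, with 17.1 CPM of Fads2, 4.35 CPM of Scd1 and a sum of 485.6 CPM. At E16.5 the BAM library with the highest sum, replicate 2 with 283.8 CPM, had Scd1 at 0, and the one with the lowest sum, replicate 3 with 149.3 CPM, had the most Scd1, 2.52 CPM. Among microglia at E10.5 the order was another one: Fads2 was at 18.1 to 26.8 CPM with a mesenchymal sum of 2.48 to 20.4 CPM. The part of such transcripts in the Fads2 and Scd1 levels was not tested.

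**Figure D5:**
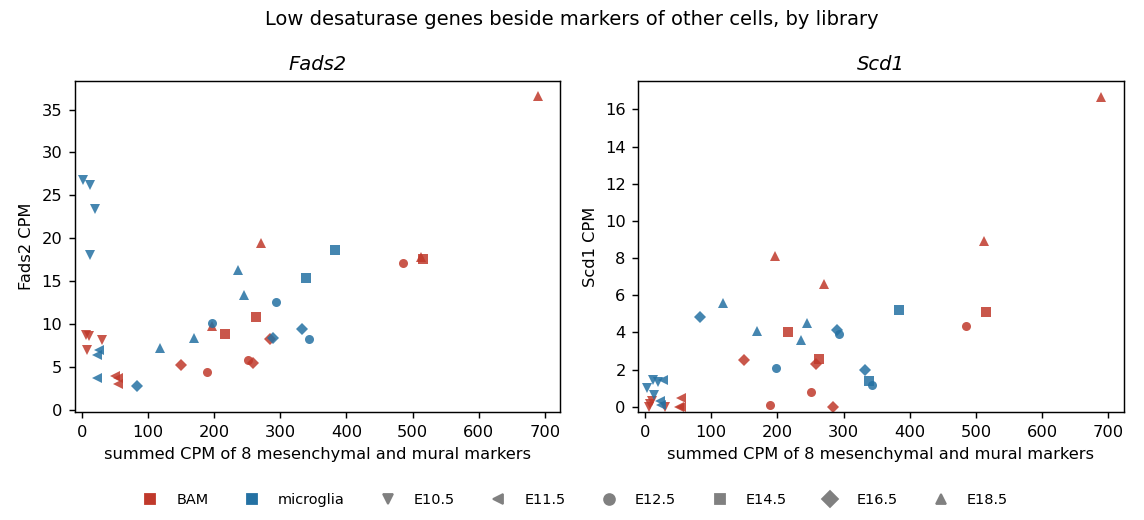
CPM of Fads2 (left panel) and Scd1 (right panel) in each library against the summed CPM of 8 mesenchymal and mural markers, BAM in red and microglia in blue, with marker shape by stage. The BAM library with the highest marker sum, E18.5 replicate 4, holds the highest level in both panels, while the 4 microglia libraries of E10.5 stand at low sums with 18.1 to 26.8 CPM of Fads2.

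Genes of neighbouring pathways give the setting of these changes. Their counts over the stages stand against the 13.7% of all tested genes called higher in BAM and the 14.52% called lower. Of these lists, 2 of 6 further sterol enzymes were higher in BAM (Acat1, the mitochondrial thiolase, 1.06 ± 0.07 (adjusted p = 1.35e-15), and Lbr, a sterol reductase of the nuclear envelope, 0.78 ± 0.09 (adjusted p = 2.82e-09)) and 2 were lower. Of 12 genes of sterol uptake and esterification 0 were higher and 7 were lower in BAM. They included the lipoprotein receptor Lrp1 (-1.33 ± 0.07 (adjusted p = 2.81e-18)), the lysosomal sterol exporter Npc1 (-0.97 ± 0.08) and the receptor-degrading ligase Mylip (-0.92 ± 0.07). Of 10 efflux and oxysterol genes 2 were higher, among them the oxysterol-making enzyme Cyp27a1 (1.20 ± 0.07 (adjusted p = 1.26e-16)), and 3 were lower, the exporters Abcg1 (-1.68 ± 0.11 (adjusted p = 1.69e-14)) and Abca7 (-0.81 ± 0.08) and the acyltransferase Lpcat3 (-0.82 ± 0.06).

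Of 19 further lipid synthesis genes 4 were higher and 7 lower in BAM, with the carbohydrate-responsive factor Mlxipl at -3.35 ± 0.18 (adjusted p = 2.23e-17) and Mid1ip1, an activator of acetyl-CoA carboxylase, at 0.93 ± 0.06 (adjusted p = 2.29e-15). Of 11 fatty acid oxidation genes 3 were higher and 2 lower, of 9 lipid storage and uptake genes 3 were higher and 3 lower, and of 15 proliferation genes 3 were higher and 2 lower. The fatty acid receptor Cd36 was at 2.54 ± 0.17 (adjusted p = 1.11e-13) and the binding protein Fabp5 at -1.497 ± 0.11 (adjusted p = 2.2e-13). At E11.5 against E10.5, 1 of 12 uptake and esterification genes and 3 of 10 efflux and oxysterol genes were called higher in BAM, where 2.98% of all tested genes were. In microglia 6 of 12 and 4 of 10 were, where 5.28% of all tested genes were. Called lower were 1 of 12 and 0 of 10 in each population, where 1.46% of all tested genes were in BAM and 3.12% in microglia. The following genes of these lists were chosen after their values were seen. Abca1 rose by 1.14 ± 0.20 in BAM and 2.12 ± 0.20 in microglia, Mylip by 1.01 ± 0.17 and 1.87 ± 0.17, and Apoe by 1.46 ± 0.27 and 1.97 ± 0.27, BAM given first each time. Abcg1 rose by 3.39 ± 0.27 in microglia (adjusted p = 1.05e-10) and was not called in BAM (0.73 ± 0.26 (adjusted p = 0.111)).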

How the data were processed

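RNA from sorted microglia and border-associated macrophages of embryonic mouse brain was extracted with the PicoPure kit, and libraries were made from 2 ng of total RNA with modified SMART-seq2 chemistry and a Nextera XT kit and sequenced from both ends, per the labels' protocols. The submitters' processing notes name STAR, featureCounts and the build GRCm38, without a role or order. The versions, the annotation release and the strand setting are not given in the sources used here. The authors deposited whole-number counts per gene, unnormalized, for 39 libraries. Counts of 2 (49977 entries) outnumbered counts of 1 (21280 entries), as both reads of a pair counted would give, and no molecular identifiers were used. Library totals were 10.7 to 47.2 M counts, which limits the precision for members near 0 (Scd1 and Fdps).

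From these counts, 22061 of 53379 genes were kept with filterByExpr (99.973% of the counts), scaled with TMM factors and fitted in edgeR 4.0.16 (R 4.3.3, limma 3.58.1) by the robust quasi-likelihood method with 1 coefficient for each of 12 groups (27 residual degrees of freedom). Of 15 comparisons, each was adjusted over all tested genes by the Benjamini-Hochberg method and called at an adjusted p under 0.05. Log2 differences are given ± their standard error and CPM ± SD. CPM used the library total of all genes. The script was tested on simulated data. Alternatives were DESeq2 1.42.0, RLE factors, no filter, the library series as a covariate, E18.5 libraries of a series left out, a block of libraries with adjacent numbers (19 pairs), the compared groups alone, and each library left out. Replicate numbers were given in accession order and pair nothing. Values in every library are given for members called over the stages or between stages (up to 8 each way by adjusted p) and for the 5 regulators. Members and lists were chosen with earlier results of these data known. Some genes of the neighbouring pathways are not reported here.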

Additional observations from a re-analysis of the deposited data

Results flagged for a closer look

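Of 132 sets of 4 libraries (33 genes in the 4 groups of that size), 8 had a library set apart from the other 3, and chance alone flags about 1 in 20 sets. In BAM at E10.5, replicate 1 had 103.1 CPM of Acat2, against 72.9 to 76.9 CPM in the others, and 63.9 CPM of Scap, against 45.3 to 47.0 CPM. In BAM at E18.5, replicate 1, the R10 library, had 30.9 CPM of Ebp, against 54.7 to 55.9 CPM, and replicate 4 had 256.7 CPM of Scd2, against 195.3 to 200.6 CPM. In microglia at E10.5, replicate 1 had 110.9 CPM of Cyp51, against 76.8 to 80.8 CPM, and 55.5 CPM of Sc5d, against 38.1 to 40.4 CPM. In the same group replicate 4 had 118.3 CPM of Fads1, against 110.4 to 110.8 CPM. In microglia at E18.5, replicate 3 had 94.8 CPM of Fasn, against 124.9 to 130.7 CPM.

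The change from E10.5 to E18.5 differed between the populations for 3 members by the edgeR test of that difference (BAM change minus microglia change, log2): 1.37 for Lss, -0.86 for Scap and 2.34 for Fads2. Of all tested genes 3.09% were called higher and 3.61% lower in this test. Without the R10 libraries of E18.5, 1 of the 3 calls was kept, and 1 of the 3 held with each library left out in turn.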

How the results depend on the processing

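Across all alternatives that could be run, 0 called results of a member changed sign. Of 135 called results in the 15 comparisons, 129 kept their call with RLE factors, 126 without the filter, 134 with DESeq2 and 116 with series as a covariate. Of those each alternative applies to, 74 of 91 kept it without the R10 libraries at E18.5, 53 of 91 without the R8 libraries at E18.5, 43 of 44 under the block of adjacent library numbers and 103 of 119 with the compared groups alone. When each library was left out in turn, 84 of 135 kept their call throughout.

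The counts of called members moved by more than 1.5 times as follows. For BAM against microglia at E10.5 (2 members) the block gave 4. At E11.5 (2) the block gave 4 and DESeq2 gave 5. At E14.5 (3) the block gave 5 and DESeq2 gave 6. At E18.5 (9) the count was 4 without R8 libraries. For BAM at E11.5 against E10.5 (9), DESeq2 gave 16. For microglia at E18.5 against E10.5 (26) it was 15 without R8. For BAM at E18.5 against E12.5 (4) it was 0 without R8, 7 with DESeq2 and 2 with the groups alone. For microglia at these stages (8) it was 5 with the covariate, 3 without R10, 4 without R8 and 5 with the groups alone. For the difference of changes from E10.5 to E18.5 (3) it was 1 without R10, 1 without R8, 6 with DESeq2 and 6 with the groups alone. The cause was not tested, beyond the smaller number of libraries where some were left out.

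Leaving out single libraries, the number of called members ran from 11 to 17 over the stages, 1 to 3 at E10.5, 1 to 4 at E11.5, 2 to 3 at E12.5, 2 to 4 at E14.5, 6 to 9 at E16.5 and 6 to 9 at E18.5. It ran from 7 to 10 for BAM and 10 to 16 for microglia at E11.5 against E10.5, 22 to 25 and 21 to 26 at E18.5 against E10.5, and 3 to 5 and 2 to 8 at E18.5 against E12.5. For the differences of changes it ran from 1 to 4 (E10.5) and was 0 throughout (E12.5).

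Over all tested genes, the count at E10.5 was 1669 with DESeq2 and 518 with the groups alone (997 as reported), at E11.5 930 with the groups alone (1479) and at E18.5 1014 without R8 (3409). For E11.5 against E10.5 it was 1799 with DESeq2 and 368 with the groups alone in BAM (980), and 1058 with the groups alone in microglia (1854). Without R8 libraries it was 4149 in BAM (8271) and 3649 in microglia (7763) for E18.5 against E10.5, 934 (2361) and 918 (1527) for E18.5 against E12.5, and 446 (1478) and 150 (496) for the differences of changes, the last of which was 799 with DESeq2. Without single libraries it was 834 at E14.5 without microglia replicate 1 (1605), 637 for BAM at E11.5 without BAM E11.5 replicate 2, 1564 and 734 for E18.5 against E12.5 in BAM and microglia without E12.5 replicate 3, and 323 and 329 for the difference of changes from E12.5 without BAM E12.5 replicate 2 and without microglia E12.5 replicate 3.

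The labels give no replicate numbers, so libraries were paired by adjacent library number, as a hint from the numbering and not the design. Under this block 16 of 16 calls over the stages were kept, and the call it ended was that of Elovl6 at E18.5 (0.84, adjusted p = 0.071).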
